A study of Vitis vinifera with 24 samples.

Results

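The change in transcript levels between the beginning of veraison (BV) and the end of veraison (EV) was followed in Sangiovese berries on 12 of the 24 arrays of the series, the members being fixed by their labels and not by any measured value. The 6 EV arrays held berries of vines that had lost their leaves before bloom (PB, 3 arrays) or at veraison (V, 3 arrays), and the 6 BV arrays held berries of untreated vines (C, 3 arrays) or of PB vines (3 arrays). PB vines were stripped by hand of the main and lateral leaves of the 6 basal shoot nodes on Julian day (JD) 147 and V vines on JD 211, while C vines were not defoliated. All vines, C included, were hedged between these dates. Each array was hybridised with Cy3-labelled total RNA from seedless berry tissue, pooled from 3 adult vines of 1 vineyard row, and the replicates are pools from different blocks of vines. The paper describes blocks that each held all treatments and were sampled at each stage. The PB pools at BV and EV thus came from the same vines. The tests below took the 12 arrays as independent, except where a replicate block is named. V berries were not sampled at BV and the C berries sampled at EV and at harvest carry the labels of a cluster-thinning experiment, so the 12 arrays are those at BV and EV whose labels describe the defoliation experiment. PB is the only treatment present at both stages. In V berries the stage and the defoliation between the samplings cannot be told apart.

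Veraison is the onset of ripening in the grape berry. The hard, green and acid fruit softens, imports sugar into the vacuole of its flesh cells and, in red cultivars, fills the skin with anthocyanins, while malic acid is respired and photosynthesis in the fruit declines. Genes of cell expansion and wall loosening, sugar transport and pigment synthesis are commonly switched on at this point, and genes of the green berry are switched off. A cluster does not pass through veraison in step, so that a pool of berries taken at its beginning can hold green, soft and coloured fruit. The array carries several probes for each grapevine gene. Without a table that links probes to genes, the values below are per probe, no gene or pathway is named, and markers of the berry tissue could not be checked.

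The deposited values are intensities on a linear scale that were already normalized between arrays, and they were used as log2 intensities. Levels are therefore relative to the other probes of an array, and in a tissue sample fewer cells of a type and less RNA per cell cannot be told apart. Pearson correlations between pairs of the 12 arrays lay between 0.937 and 0.979, and no array was a copy of another. The table also holds 19091 probes of random sequence, which serve as negative controls. Their mean log2 intensity on an array, the random-probe level, was 5.94 ± 0.03 (SD, n = 6) at EV and 5.89 ± 0.09 (SD, n = 6) at BV, and ranged from 5.90 to 6.00 and from 5.77 to 6.03, respectively. The difference of 0.06 was not resolved by 6 arrays against 6 (exact permutation test, two-sided p = 0.182), which does not show that there was none. Without C at BV replicate 1, the array of highest level, the difference was 0.08 (exact permutation p = 0.0346).

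The stages were separated on the first component of a principal component analysis of the 12 arrays, which held 30.7% of the variation. The EV arrays scored between 47.9 and 112.1 and the BV arrays between -145.5 and -50.4, without overlap (exact permutation test, two-sided p = 0.00216, the smallest p that 6 arrays against 6 allow). The second component, with 15.2%, did not separate them (exact permutation p = 0.939). Its scores were set apart mainly by C at BV replicate 1, at 176.5, whereas the other 11 arrays lay between -81.1 and 42.7.

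From BV to EV 4683 of the 117999 grapevine probes changed, or 3.97% of all. Of these, 1623 rose (1.38%) and 3060 fell (2.59%), so that falling probes made up 65.3% of the changed ones. The number of rising probes dropped to 996 when PB at BV replicate 2 was left out, and that of falling probes to 2212. The call required a limma adjusted p (Benjamini-Hochberg) below 0.02 in a fit of the 12 arrays and a log2 difference of 1 or more, which is 2-fold. At an unadjusted p below 0.05 there were 32680 probes (27.7%). The median difference over all probes was 0.0088. As a root mean square over all probes, the difference between the stages was 0.52 on the log2 scale, whereas the spread between arrays of a stage alone gives 0.26. When the variance was pooled over all 24 arrays, which include the C arrays at EV and the harvest arrays, 1542 probes passed, 569 upwards and 973 downwards, and 1528 of them were among the 4683.

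Most changes were moderate. Among the rising probes the median log2 difference was 1.28, or 2.43-fold, and the middle 50% lay between 1.11 and 1.61. Among the falling probes the median was -1.37, or 2.59-fold down, and the middle 50% lay between -1.72 and -1.17. Differences below 4-fold accounted for 1441 (88.8%) of the rising and 2621 (85.7%) of the falling probes. A change of 16-fold or more was reached by 3 probes upwards and 10 downwards, and one of 8-fold up to 16-fold by 20 and 45, all as fitted, with values below the random-probe level left as they were. In 3308 probes (2.8%) all 6 EV arrays lay above all 6 BV arrays, and in 4133 (3.5%) all lay below. The groups were separated in this way in 1107 (68.2%) of the probes called as rising and in 2125 (69.4%) of those called as falling, which were selected for that difference.

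The 2 probes with the largest fitted rise among the called and fully separated ones were VitusP00187478 and VitusP00187480, whose numbers lie close together. The log2 intensity of VitusP00187478 was 5.11, 11.11 and 8.80 on the 3 C arrays at BV and 10.58, 5.76 and 11.97 on the 3 PB arrays at BV, in the order of the replicates. At EV it was 13.42, 13.02 and 12.64 in PB and 12.97, 12.93 and 13.11 in V. The BV arrays thus spread over almost the whole range from background to near the EV level, while the EV arrays lay close together. The SD of the 6 arrays was 2.88 at BV and 0.25 at EV. VitusP00187480 had the same order of arrays at BV, from 5.87 in C replicate 1 and 6.66 in PB replicate 2 to 12.32 in C replicate 2 and 13.07 in PB replicate 3, and lay between 13.41 and 14.33 on the EV arrays.

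The difference between the stages was 4.13 on the log2 scale for VitusP00187478 (standard error 0.98, limma adjusted p = 0.0145) and 4.10 for VitusP00187480 (standard error 1.03, limma adjusted p = 0.0188). Of the BV arrays, 4 and 5 lay above the random-probe level. With values below that level raised to it, the rise was 3.94 (15.4-fold) and 4.07 (16.8-fold), so that the order of the pair was turned. Both probes were called by a narrow margin, in a fit that takes a common variance for both stages although their SD was far larger at BV. A fit with unequal variances was not run. For both, the adjusted p rose above the threshold when any 1 of the 6 EV arrays, C at BV replicate 3 or PB at BV replicate 2 was left out, and for VitusP00187480 also without C at BV replicate 1, with values from 0.0219 to 0.0427. With eBayes trend and robust estimation it was 0.0392 and 0.0490.

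The largest falls were those of VitusP00192138 and VitusP00192142, again neighbours in number. VitusP00192138 had log2 intensities of 12.92, 11.07 and 12.04 in C and 10.85, 12.44 and 11.06 in PB at BV. At EV they were 6.11, 6.56 and 5.62 in PB and 6.42, 6.35 and 5.22 in V. Every BV array was bright and every EV array was near background, with 4 of the 6 EV arrays above the random-probe level. VitusP00192142 lay between 10.78 and 12.80 at BV and between 5.29 and 6.80 at EV, where 2 arrays exceeded that level.

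These differences were -5.68 for VitusP00192138 (standard error 0.36, limma adjusted p = 8.49e-06) and -5.65 for VitusP00192142 (standard error 0.37, limma adjusted p = 1.01e-05). Both were called under each of the 24 alternative limma settings, with an adjusted p of at most 7.08e-05. SAM was not read for single probes. With values below the random-probe level raised to it, the size of the change was 5.51 and 5.38 on the log2 scale, or 45.6-fold and 41.6-fold. The BV arrays on which the falling probes were brightest, C replicate 1 and PB replicate 2, were those on which the rising probes were dimmest. On the 12 other arrays both pairs were near their EV level. VitusP00187478 was at 13.47 ± 1.04 (SD, n = 3) in C at EV and at 13.54 ± 0.24 (SD, n = 3) in PB at harvest, and VitusP00192138 was at 5.57 ± 0.55 and 5.71 ± 0.35, respectively.

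**Figure D1:**
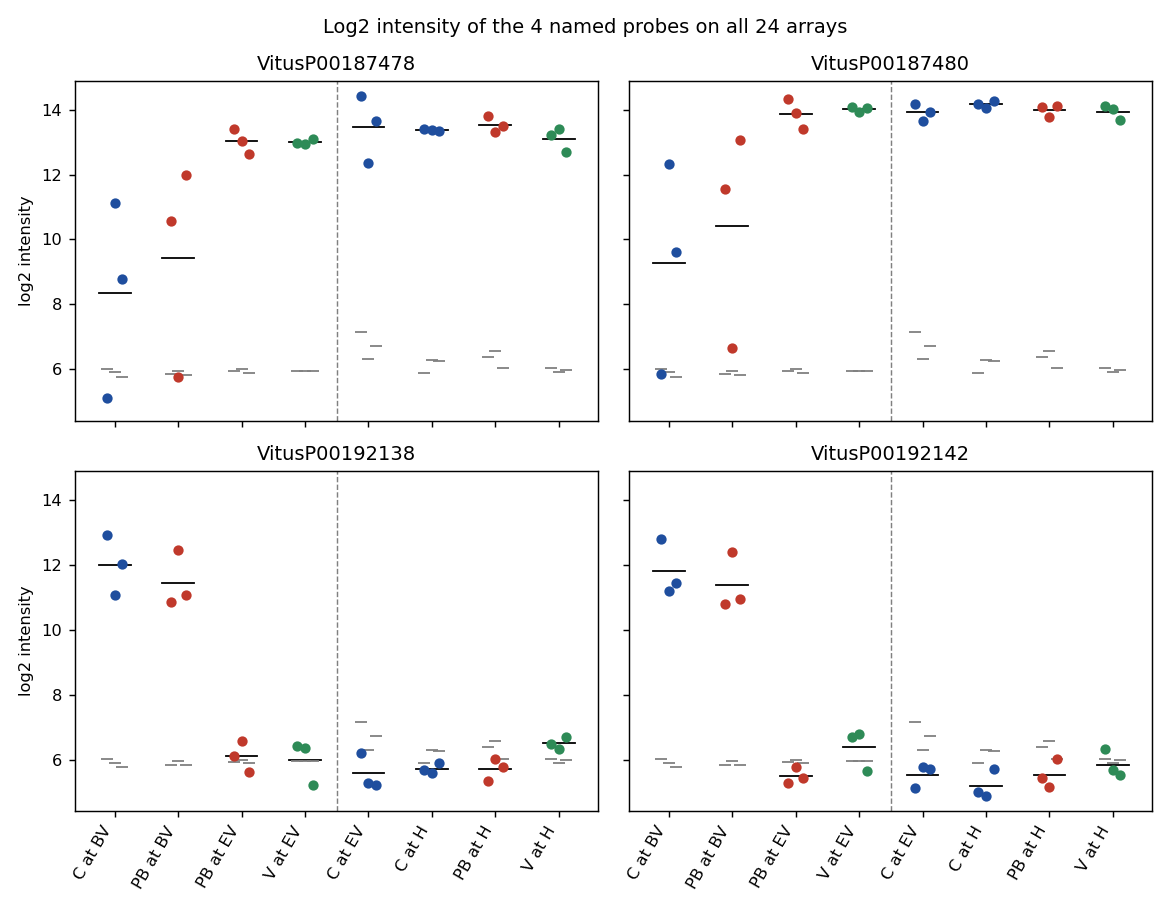
Log2 intensity (vertical axis) of the 4 named probes on each of the 24 arrays, by group, with blue for C, red for PB and green for V, a black bar for the group mean of 3 arrays and a grey dash for the random-probe level of each array. The 4 groups left of the dashed line are the 12 arrays compared, on which the BV points of the rising probes spread from 5.11 to 13.07 while the EV points of all 4 probes stay together.

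Changed probes were found at most levels except the lowest. When all probes were ordered by their mean log2 intensity and cut into 4 equal parts, 0.678% of the dimmest part were called, 5.81% of the second, 6.63% of the third (8.46 to 10.7) and 2.75% of the brightest. Falling probes outnumbered rising ones in each part, with 167 against 33 in the dimmest and 476 against 335 in the brightest. Rising probes had a median group mean of 8.63 at BV and 10.06 at EV, and falling probes of 9.44 and 7.86. The sets were selected by the direction of this change, so which set was the brighter at a stage is no separate finding. Few called probes lay at or below the random-probe level on all 6 arrays of a stage. That level is a mean over random probes, so a probe near background can exceed it on some arrays. Complete loss or gain of signal was therefore not counted. The 6 EV arrays were all at or below the random-probe level in 66 falling probes (2.16%, against 5.97% of all probes), and the 6 BV arrays in 11 rising probes (0.678%, against 4.49% of all). On all 12 arrays, 84.0% of the rising, 73.8% of the falling and 67.5% of all probes exceeded that level.

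**Figure D2:**
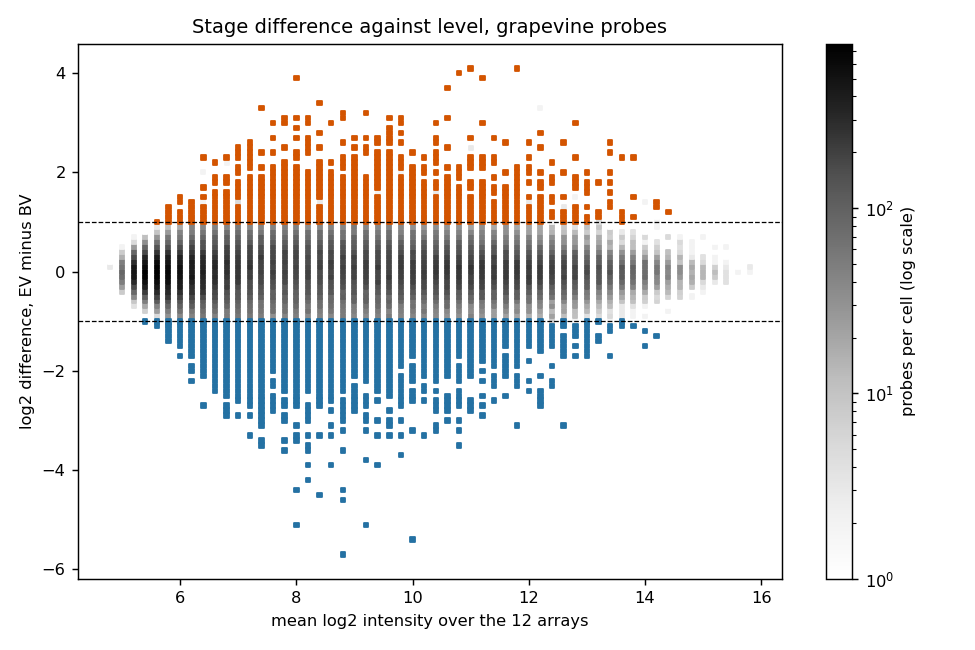
Log2 difference between EV and BV (vertical axis) against the mean log2 intensity over the 12 arrays (horizontal axis), in cells shaded by the number of probes on a log scale. Cells that hold at least 1 called probe are orange for the 1623 rising and blue for the 3060 falling probes, the dashed lines mark 2-fold, and the blue cells reach further from 0 (to -5.68) than the orange ones (to 4.13).

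The spread between arrays was larger at BV mainly in the rising probes, a difference for which no test was run. The 6 arrays of a stage came from different treatments, so their SD includes any difference between treatments. In the rising probes the median SD over the 6 arrays was 0.49 at BV and 0.37 at EV, and 1113 of them (68.6%) varied more at BV, against 55.0% of all probes. In the falling probes the medians were 0.46 and 0.45, with 51.5% more variable at BV. Over all probes the medians were 0.38 and 0.35. The arrays at BV differed in the level of both sets. The median level of the rising probes was 8.51, 8.75 and 8.47 on the C arrays and 9.03, 8.18 and 8.93 on the PB arrays at BV, in the order of the replicates. That of the falling probes was 9.65, 9.41 and 9.47 in C and 9.18, 9.90 and 9.08 in PB. PB at BV replicate 2 was thus the lowest of the 6 in the rising and the highest in the falling set. PB at BV replicates 1 and 3 were the highest in the rising and the lowest in the falling set. Both sets were called on these same arrays, so this order of the BV arrays is described only and is no separate finding. Without PB at BV replicate 2, the number of changed probes was 3208, the fewest on leaving out any array.

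Probes of neighbouring number tended to change together. Among 116431 adjacent pairs whose numbers differed by at most 5, the log2 differences between the stages had a correlation of 0.53 across pairs, between 0.48 and 0.55 for each distance from 1 to 5, against 0.02 for probes 100 rows apart. These are values across probes on the same 12 arrays, and probes are not independent replicates. A probe adjacent in this way to a rising probe was itself called as rising in 36.7% of 3201 cases and as falling in 22 cases. One adjacent to a falling probe was called as falling in 40.6% of 6020 cases and as rising in 22. Counted as unbroken runs of called probes of 1 direction, the 1623 rising probes fell into 1036 runs and the 3060 falling ones into 1838. Runs of 3 or more numbered 168 (630 probes) upwards and 353 (1261 probes) downwards, with a longest run of 16 and 12. Not all neighbours followed. Within 10 numbers of VitusP00187478, 3 of 7 other probes were called as rising, whereas the remaining 4 had differences below 0, down to -1.20, and the median of the 7 was -0.14. Within 10 of VitusP00192138, 3 of 7 others were called as falling and 6 had the same sign. The count of changed probes is therefore larger than that of independent signals, and which of the runs belong to 1 gene was not known.

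The 12 arrays can be divided into 2 comparisons with no array in common, PB at EV against PB at BV (the PB comparison) and V at EV against C at BV (the V-C comparison), each of 3 arrays against 3. By the design in the paper both drew on the same blocks and sampling days. Anything particular to a block or a day is thus shared by them, and they are not fully independent. Fitted alone, the PB comparison called 0 probes (0%) in limma, its lowest adjusted p was 0.0212, and 18091 probes (15.3%) had an unadjusted p below 0.05. The V-C comparison called 44 (0.0373%), 9 upwards and 35 downwards, with 21313 (18.1%) at an unadjusted p below 0.05, and 0 passed on leaving out any 1 of its arrays. With the variance taken from all 12 arrays, the counts were 66 (5 upwards, 61 downwards) and 978 (343 and 635). Without a test, 2900 probes were at least 2-fold higher and 4586 at least 2-fold lower in the PB comparison, and 4354 and 5747 in the V-C comparison.

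Although few probes passed in either, both comparisons gave similar differences. Across all probes the log2 differences had a correlation of 0.65 (Spearman 0.57), or 0.75 over the brighter 50% and 0.55 over the dimmer 50%, and the sign was the same in 69.4% of probes. The 500 probes with the most positive and the 500 with the most negative moderated t of 1 comparison were then read in the other, a list size chosen after the data had been seen. Chosen in the PB comparison, where their median difference was 1.40, the 500 risers had a median of 1.13 in the V-C comparison (middle 50% from 0.73 to 1.71), and 478 of them (95.6%) were higher at EV there, against 50.6% of all probes. The 500 fallers had a median of -1.95 in the PB comparison and of -1.78 in the V-C comparison, with 496 (99.2%) lower, against 49.4% of all. Chosen in the V-C comparison, 465 (93.0%) of the risers were higher and 500 (100%) of the fallers lower in the PB comparison, with medians of 0.97 and -1.77. The lists of both comparisons shared 86 of the 500 risers (17.2%) and 159 of the 500 fallers (31.8%), and 0 probes were in lists of opposite direction. Each list held 500 of the 117999 probes. Lists of this size would share few probes in opposite directions by size alone, so the 0 is no separate finding.

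**Figure D3:**
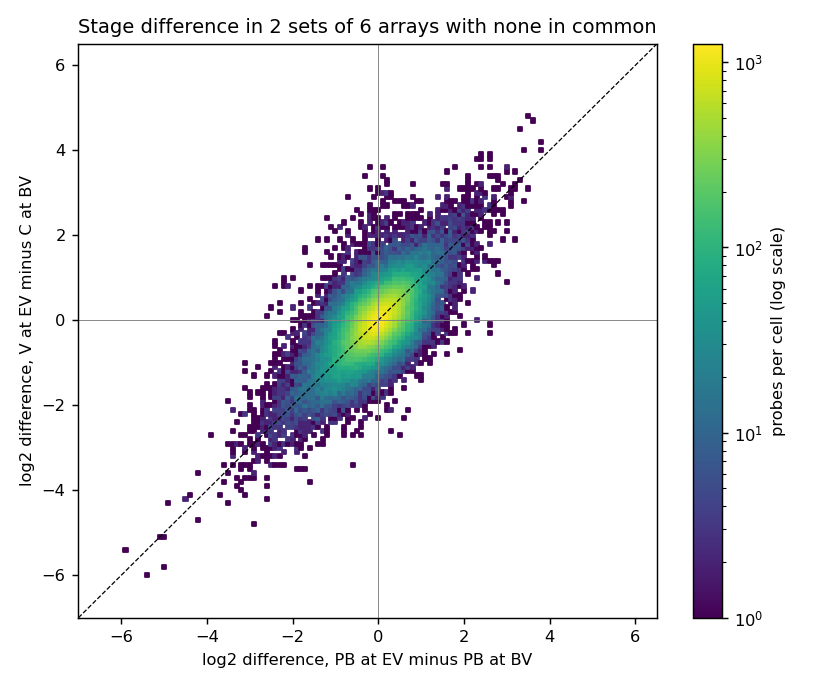
Log2 difference of V at EV against C at BV (vertical axis) and of PB at EV against PB at BV (horizontal axis) for the 117999 grapevine probes, in cells coloured by the number of probes on a log scale, with the line of equal difference dashed. The cloud lies along that line (r = 0.65), and the falling probes reach the lower left corner in both sets of 6 arrays.

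Whether the change between the stages differed between the PB and the V-C comparison was tested directly in the same 12 arrays with a mean for each group. By limma 0 of 117999 probes were called (0%), the lowest adjusted p was 1.00, and 4471 (3.79%) had an unadjusted p below 0.05. The root mean square of this difference was 0.48 on the log2 scale, below the 0.53 that the spread between replicates alone gives. The 95% interval reached a median of 0.94 to either side of the estimate, so that for many probes differences of nearly 2-fold lay inside it. For VitusP00187478 the change was 3.59 in the PB comparison and 4.66 in the V-C comparison, a difference of 1.08 with a 95% interval from -3.45 to 5.60. For VitusP00192138 the changes were -5.35 and -6.01, and the difference of -0.66 had an interval from -2.27 to 0.95.

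Each array was also placed by projection on an axis from the BV mean (0%) to the EV mean (100%) of the comparison to which it did not belong, over all probes. By the construction of such an axis, replicate spread draws outside arrays from both ends towards the middle. On the PB axis an outside array equal to PB at BV would lie at 22.6% and one equal to PB at EV at 77.5%. C at BV lay at 15.2% ± 9.58 (SD, n = 3 arrays), with 20.9%, 20.6% and 4.17%, and V at EV at 87.6% ± 5.40, with 91.0%, 81.4% and 90.5%. The groups differed by 72.4 percentage points and did not overlap (exact permutation test, two-sided p = 0.1, the smallest p that 3 arrays against 3 allow). On the V axis, whose ends would be 24.9% and 84.0%, PB at BV lay at 29.5%, -6.08% and 25.3%, and PB at EV at 83.6%, 71.8% and 68.8%, a difference of 58.5 percentage points (exact permutation p = 0.1). PB at BV replicate 2, the array of extreme level in the rising and falling sets, was thus also the lowest on an axis that none of the PB arrays had entered.

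The arrays outside the comparison were placed on the same axes. C berries at EV lay at 43.1% ± 11.4 (SD, n = 3 arrays) on the PB axis, below the V berries of the same stage, with no overlap, and at 67.7% ± 6.04 on the V axis, where they overlapped with PB at EV. The random-probe level of these C arrays was between 6.31 and 7.15, above that of all 12 arrays compared, and its part in their position was not tested. At harvest, the C arrays again carry the cluster-thinning labels, so that treatment and experiment cannot be told apart where they stand beside PB or V. C lay at 76.4% ± 18.8 on the PB axis and at 83.7% ± 4.24 on the V axis. PB lay at 92.8% ± 8.48 and 102% ± 3.97, and V at 116% ± 18.9 and 109% ± 13.7, in the same order of axes. An outside array equal to the EV mean would lie at 77.5% on the PB axis and at 84.0% on the V axis. The mean of C at harvest was near each of these values. On the PB axis PB at harvest overlapped with C and with V at harvest, while C and V did not overlap. On the V axis C at harvest (80.8% to 88.5%) lay below both PB (99.3% to 107%) and V (100% to 125%), which overlapped. The random-probe levels of the harvest arrays, from 5.89 to 6.56, reached above those of the 12 arrays.

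**Figure D4:**
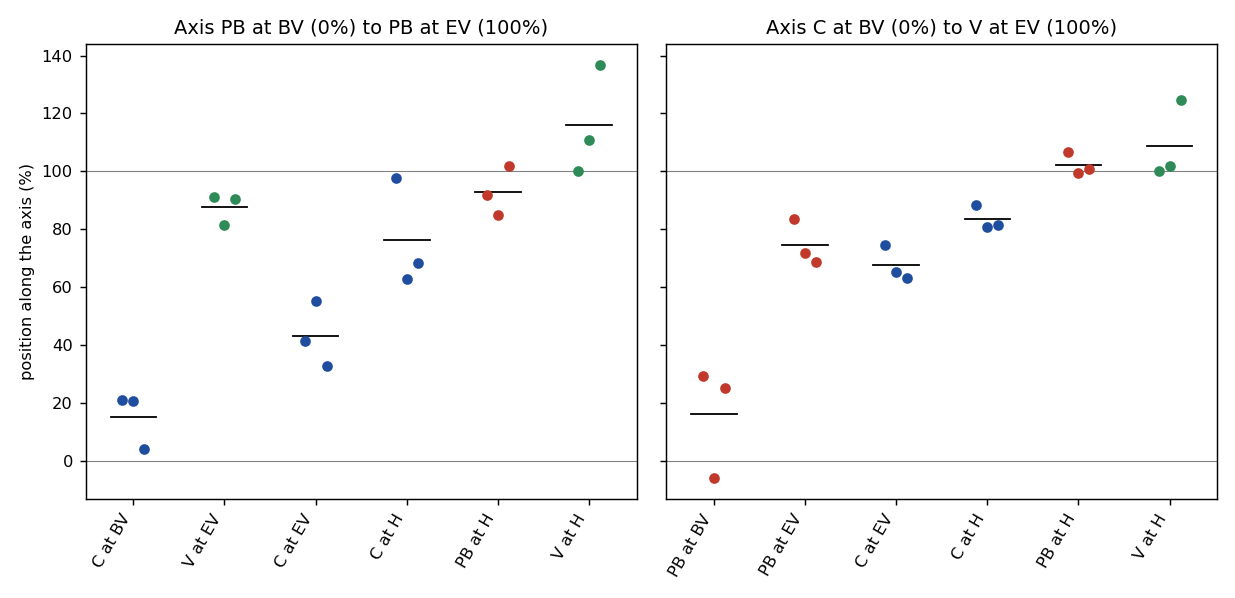
Position of each outside array (vertical axis, %) along the line that joins the PB means of both stages (left) and the line from the C mean at BV to the V mean at EV (right), by group, with blue for C, red for PB, green for V and a black bar for the mean of 3 arrays. In both panels the EV arrays of the other comparison (68.8% to 91.0%) lie far above its BV arrays (-6.08% to 29.5%). Through replicate spread, an outside array equal to the EV mean would lie at 77.5% (left) or 84.0% (right).

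The levels of the 1623 rising and 3060 falling probes were followed across the series as the median log2 intensity per array. They had been selected on the 12 arrays, so their separation there is no finding. Rising probes were at 8.58 ± 0.15 (SD, n = 3 arrays) in C and 8.71 ± 0.47 in PB at BV, and at 10.01 ± 0.13 in PB and 10.15 ± 0.21 in V at EV. In arrays that took no part in the selection they were at 9.52 ± 0.23 in C at EV and, at harvest, at 10.08 ± 0.10 in C, 10.38 ± 0.09 in PB and 10.54 ± 0.20 in V. Falling probes were at 9.51 ± 0.12 in C and 9.39 ± 0.45 in PB at BV, and at 7.90 ± 0.24 in PB and 7.86 ± 0.21 in V at EV. Outside the selection they were at 8.16 ± 0.35 in C at EV and at 7.52 ± 0.11 in C, 7.20 ± 0.06 in PB and 7.24 ± 0.23 in V at harvest. The C arrays at EV differed from the BV arrays in the median of all grapevine probes, with 8.10, 8.41 and 8.26 against 8.46 to 8.49, and in their random-probe level of 6.31 to 7.15. The part of this shift in their set levels was not tested. On every harvest array and every C array at EV, the rising set was above and the falling set below its level on each of the 6 BV arrays.

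**Figure D5:**
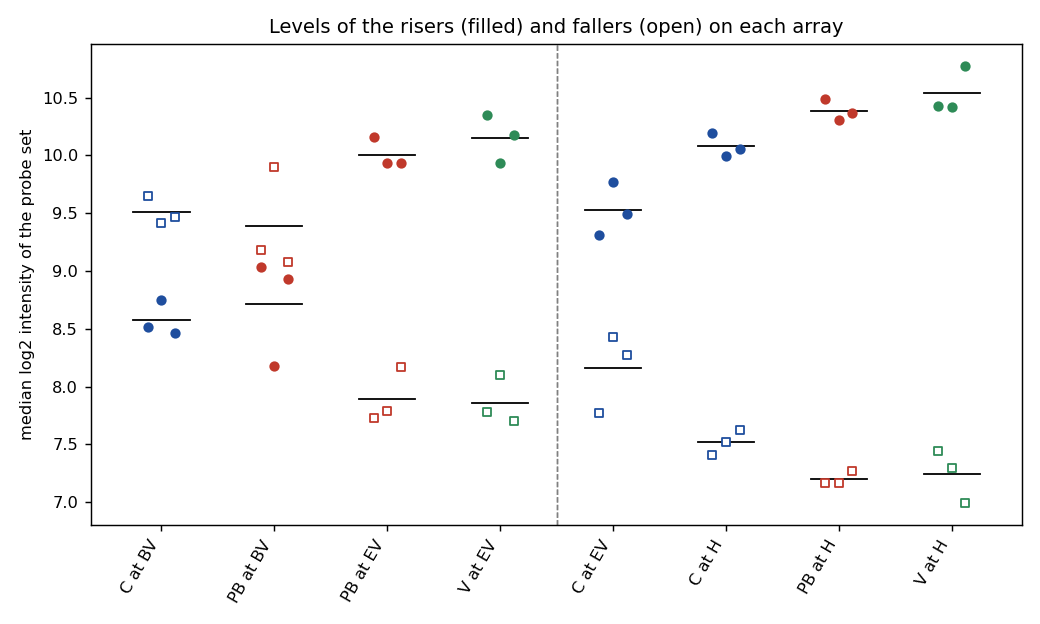
Median log2 intensity (vertical axis) of the rising probes (filled circles) and of the falling probes (open squares) on each of the 24 arrays, by group, with blue for C, red for PB and green for V and a black bar for the mean of 3 arrays. Left of the dashed line are the arrays on which the probes were chosen. Right of it the sets stay apart, least in C at EV (9.52 and 8.16) and most in V at harvest (10.54 and 7.24).

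The probes of random sequence, put through an identical fit, gave a measure for probes at background level only. No grapevine probes of matched level were set beside them, so their rates need not hold for brighter probes. Of 19091, limma called 0 (0%), with a lowest adjusted p of 0.0814, and 76 (0.398%) differed by 2-fold or more. An unadjusted p below 0.05 was found for 1692 (8.86%), of which 1232 were higher and 460 lower at EV, against 27.7% of the grapevine probes. When the random-probe level entered the fit as a covariate, 5251 grapevine probes changed, 2026 upwards and 3225 downwards, and 3890 of them were among the 4683.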

How the data were processed

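The authors deposited 1 table of fluorescence intensities per probe for 24 one-colour NimbleGen arrays, normalized between arrays. The scanning, background correction and normalization software is not given in the sources used here. Of 139363 rows, 137090 held values. The 117999 rows of grapevine probes were put on the log2 scale and fitted with limma 3.58.1 (R 4.3.3) on the 12 arrays, with 1 mean per stage, lmFit and eBayes without trend, and no filter. The PB and V-C comparisons were fitted on their 6 arrays, and the difference between them with 4 group means. The methods' SAM and the other alternatives are under the closing section. The named probes were the 2 largest rises and falls among called probes without overlap between the stages. Only 2 of each are named, since no table used here pairs identifiers with genes; the planned gene lists, tissue markers and values per gene were not analysed for that reason. Members, rules and thresholds were chosen with earlier results of these data known. Single values per array were compared by exact permutation tests. Scripts were tested on simulated data. The number of arrays limits the precision.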

Additional observations from a re-analysis of the deposited data

How the results depend on the processing

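The number of probes changed from BV to EV (4683) lay between 4207 and 6004 under median centring with MAD scaling, quantile normalization over the grapevine probes, both filters on dim probes, 4 group means, the replicate block, SAM (6004), an adjusted p below 0.05, eBayes with trend and robust estimation, and the random-probe level as a covariate, and between 3208 and 5282 on leaving out each array, with 996 to 1881 rising probes. It was 1542 with all 24 arrays in the fit, 8338 at 1.5-fold and 8472 with no minimum fold. Falling probes outnumbered rising ones in each of these settings. The PB comparison (0) called 66 with 4 group means, 2 with MAD scaling and between 0 and 1 (without PB at BV replicate 2) on leaving out an array. The V-C comparison (44) called 978 with 4 group means and 0 on leaving out any array. The difference between these comparisons and the random-sequence probes stayed at 0 calls in every setting run. The difference in random-probe level ranged from 0.0329 (without C at BV replicate 3) to 0.0849 (without C at BV replicate 1). The cause of these shifts was not tested, apart from the looser thresholds and smaller samples themselves.

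Each replicate was a pool from a block of vines, but neither the labels nor the methods tie a replicate number to a block, and the samples were not taken as paired. Deviations from the group means correlated between -0.22 and 0.31 for arrays of the same number, and 6 of 12 arrays correlated best with their own number. With the replicate block, 4703 probes changed between the stages, 0 in the PB comparison and 0 (instead of 44) in the V-C comparison, and the adjusted p of VitusP00187478 and VitusP00187480 became 0.0215 and 0.0276. With 4 group means these were 0.0257 and 0.0321. Probes near background are limited by the random-probe level. Settings for these 2 comparisons other than 4 group means, the block and leaving out arrays were chosen after seeing the data, as was the floor at the random-probe level. The median of a gene's probes was not run, since no table used here pairs probes with genes.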

Other observations

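The 500 risers and 500 fallers of most extreme moderated t in the PB and in the V-C comparison were also read in the other arrays, set against BV arrays that had not chosen them. The C arrays at EV and at harvest carry the cluster-thinning labels, so that their differences from C at BV cross 2 experiments. Those chosen in PB berries had a median log2 difference between V at harvest and C at BV of 1.48 for the risers (89.6% higher, against 52.0% of all probes) and of -2.28 for the fallers (94.0% lower, against 48.0%). Between C at EV and C at BV the medians were 0.49 (middle 50% from -0.83 to 1.64, with 59.8% higher, against 49.2% of all probes) and -1.29 (82.0% lower, against 50.8%), on EV arrays with a random-probe level of 6.31 to 7.15. Between C at harvest and C at BV the medians were 0.78 (68.4% higher, against 52.4%) and -2.07 (93.2% lower, against 47.6%). Those chosen in the V-C comparison had medians of 1.23 (71.4% higher, against 51.6%) and -2.42 (97.6% lower, against 48.4%) between PB at harvest and PB at BV. In each of these readings the fallers kept their direction in a larger share than the risers, a difference for which no test was run.

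From EV to harvest in C berries, on 6 arrays that took no part in the comparison, the 1623 rising probes had a median log2 difference of 0.54 and were higher at harvest in 65.9%, and the 3060 falling probes had a median of -0.52 and were higher in 35.2%. Over all probes the median was 0.12 and 54.5% were higher. The random-probe level of these arrays was 6.31 to 7.15 at EV and 5.89 to 6.29 at harvest, and its part in these differences was not tested.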
